A study of Mus musculus with 18 samples.

Results

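The genes described here are 6 of the Pax transcription factor genes of neural tissue, Pax2, Pax5, Pax8, Pax3, Pax7 and Pax6. They were chosen by name from the 25239 genes of the count table, with earlier results of these data known. Counts of called members are therefore a description and not independent evidence. All 6 were among the 16582 genes that remained after the filter on low counts. Their RNA was followed over 9 conditions of mouse cell differentiation with 2 libraries each, 18 libraries in all. The comparisons show how the 6 genes differed with time in culture, with the cytokines used to obtain germ cells, and between cells with and without intact Tet genes.

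All libraries came from E14Tg2a, a line of male mouse embryonic stem cells (ESCs), taken through EpiLCs (epiblast-like cells made with Activin A and Fgf, day 0) and then cultured as floating aggregates. Wild-type (WT) cells were sampled as EpiLCs, without cytokines at day 2 and day 6, and with BMP4, BMP8a, SCF, LIF and EGF at day 6, the condition that yields PGCLCs (primordial germ cell-like cells). TET TKO cells, in which the open reading frames of Tet1, Tet2 and Tet3 had been excised with CRISPR/Cas9, were sampled as EpiLCs and, at day 2 and day 6, both without and with the cytokines. Each genotype was 1 clone or line, so a genotype difference cannot be told apart from a difference between clones. Per the study's own description, the WT cells given cytokines were sorted for SSEA1 and CD61 before RNA was taken, although the labels call them aggregates, and all others were whole aggregates. Comparisons with the sorted cells therefore carry the sort as well as the cytokines or the genotype. In bulk RNA, fewer cells of a type and less RNA per cell cannot be told apart.

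Pax proteins bind DNA through the paired domain, and several subfamilies differ in their other domains and in where they act. Pax2, Pax5 and Pax8 mark the midbrain-hindbrain boundary and interneurons of the spinal cord and hindbrain, and Pax2 and Pax8 also act in kidney and ear, Pax8 in the thyroid and Pax5 in B cells. Pax3 and Pax7 mark the dorsal neural tube and the neural crest, and also muscle progenitors. Pax6 is used in forebrain, eye and progenitors of the ventral and intermediate neural tube, and in the pancreatic islet.

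The part of the paired box shown here lets a reader see how far the RNAs of the 6 genes can be told apart by sequence, which matters because reads were assigned to genes by alignment. Each window is 90 bases of coding sequence (mm10, GENCODE M21 gene models, 5' to 3' on the coding strand), and capitals mark bases that differ from Pax2. The Pax2 window lies on the plus strand in exon 3, chr19:44761740-44761829. That of Pax5 is on the minus strand in exon 3, chr4:44691891-44691980, and that of Pax8 on the minus strand in exon 4, chr2:24442996-24443085. The Pax3 window is on the minus strand in exon 3, chr1:78193780-78193869, and the Pax7 window on the minus strand in exon 3, chr4:139829537-139829626. The Pax6 window is on the plus strand in exon 6, chr2:105684974-105685063.
Pax2: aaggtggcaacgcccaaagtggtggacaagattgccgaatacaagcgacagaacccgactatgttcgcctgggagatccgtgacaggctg
Pax5: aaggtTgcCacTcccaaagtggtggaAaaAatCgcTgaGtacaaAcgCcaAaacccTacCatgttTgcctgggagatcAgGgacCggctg
Pax8: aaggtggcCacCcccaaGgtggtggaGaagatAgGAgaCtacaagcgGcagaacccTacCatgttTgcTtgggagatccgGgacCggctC
Pax3: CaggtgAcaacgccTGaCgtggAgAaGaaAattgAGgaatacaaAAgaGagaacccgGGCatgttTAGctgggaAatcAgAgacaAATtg
Pax7: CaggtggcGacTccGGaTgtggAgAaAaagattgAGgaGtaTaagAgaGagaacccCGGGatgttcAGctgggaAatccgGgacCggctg
Pax6: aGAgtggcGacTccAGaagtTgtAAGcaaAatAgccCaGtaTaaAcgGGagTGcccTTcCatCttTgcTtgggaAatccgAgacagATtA
Pax5 differed from Pax2 at 17 bases, Pax8 at 16, Pax7 at 24, Pax3 at 26 and Pax6 at 31. Within the Pax2, Pax5 and Pax8 subfamily 81.1 to 83.3% of the bases were identical, Pax3 and Pax7 shared 78.9%, and genes of different subfamilies shared 62.2 to 73.3%. Over the whole coding sequences the longest identical runs were 27 bases, between Pax2 and Pax8, and 26 bases, between Pax3 and Pax7.

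The libraries held 11286050 to 41257861 counts (median 16305168), of which the ribosomal locus Rn45s took 16.2 to 47.6%. Replicates of every condition differed by more than counting noise. The targeted genes were checked first. Tet3, a cytosine dioxygenase gene, was lower in every TKO library than in the WT libraries of the same condition, for example 131 to 159 against 821 to 1019 normalised counts in EpiLCs. Tet1 was 737 and 967 in TKO EpiLCs against 6227 and 6036 in WT EpiLCs, but without cytokines its TKO and WT libraries overlapped (1937 and 1200 against 2028 and 1754 at day 2). Tet2 was higher in TKO than in WT cells at day 2 without cytokines, at 355 to 405 against 200 to 287. It was lower in TKO EpiLCs (31.7 and 102 against 186 and 125 in WT EpiLCs). At day 6 without cytokines Tet2 was 274 and 304 in TKO against 1428 and 574 in WT cells. With cytokines at day 6 it was 186 and 293 against 3114 and 4812, and Tet1 504 and 783 against 12106 and 11504. Gene totals do not show whether the reads in TKO cells come from the excised reading frame. The labelled cell types were checked with the summed level of their markers. The EpiLC list summed to 71442 and 74892 in WT EpiLCs and to 781.5 and 1556 in WT day 6 cells without cytokines, and the germ cell list to 23227 and 21287 in sorted WT cells and to 1379 and 643 in WT day 6 cells without cytokines.

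Levels are counts divided by the size factor of each library (normalised counts), given for replicate 1 and then replicate 2, with the mean ± SD (n = 2) of the main conditions. A condition is said to lie above another only where its libraries do not overlap with those of the other.

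Pax2, which acts in the hindbrain boundary region and in the kidney, was highest in WT day 6 cells without cytokines. Its level in WT cells was 4.82 and 5.0 in EpiLCs, 60.4 and 23.3 at day 2 without cytokines, 1192 and 292 at day 6 without cytokines (742 ± 637), and 0.695 and 3.22 at day 6 with cytokines. In TKO cells it was 6.94 and 3.30 in EpiLCs, 8.30 and 7.21 at day 2 without and 6.80 and 9.93 with cytokines, and 23.7 and 16.4 at day 6 without and 21.8 and 19.5 with cytokines. WT day 6 cells without cytokines stood above every other condition. WT day 2 cells were above TKO day 6 cells with cytokines, and overlapped with TKO day 6 cells without them (23.3 against 23.7). Both TKO day 6 conditions lay above the TKO day 2 conditions, the EpiLCs of both genotypes followed with an overlap, and the sorted WT cells were below all others.

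Pax5, the B cell member of its subfamily and a boundary gene in the brain, was present in WT cells without cytokines and at 12.9 or less in every other library. Its level in WT cells was 8.03 and 1.11 in EpiLCs, 169 and 42.7 at day 2 without cytokines, 534 and 110 at day 6 without cytokines (322 ± 300.1), and 0.695 and 1.93 at day 6 with cytokines. In TKO cells it was 0.992 and 3.30 in EpiLCs, 4.15 and 1.20 at day 2 without and 2.27 and 6.21 with cytokines, and 12.9 and 5.05 at day 6 without and 1.68 and 4.59 with cytokines. The day 2 and day 6 libraries of WT cells without cytokines overlapped, and both conditions lay above every other. The remaining 7 conditions overlapped with their neighbours in the order of means. The Pax5 start region used by RefSeq lies on the minus strand (chr4:44710695-44710814, the 120 bases before the start, mm10), and is printed with CG dinucleotides in capitals because Tet enzymes act on methylated CG sites.
Pax5: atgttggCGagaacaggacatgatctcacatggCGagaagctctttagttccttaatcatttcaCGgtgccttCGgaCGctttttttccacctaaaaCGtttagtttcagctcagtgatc
The 250 bases before this start held 19 CG dinucleotides, more than 80.3% of 32851 promoters of the same length, whose median was 6.

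Pax8, the thyroid and kidney member, was detected in every library. Its level in WT cells was 104 and 30.0 in EpiLCs, 26.3 and 5.44 at day 2 without cytokines, 411 and 45.2 at day 6 without cytokines (228 ± 259), and 19.5 and 27.0 at day 6 with cytokines. In TKO cells it was 17.9 and 37.4 in EpiLCs, 62.3 and 37.2 at day 2 without and 19.3 and 8.69 with cytokines, and 40.9 and 45.4 at day 6 without and 18.5 and 9.18 with cytokines. The high mean of WT day 6 cells without cytokines came from replicate 1, and replicate 2 lay within the range of the TKO libraries. In the order of means the 4 highest conditions overlapped with their neighbours (WT day 6 without cytokines, WT EpiLCs, TKO day 2 and TKO day 6 without cytokines), and so did the 5 lowest. The bases before the Pax8 start (minus strand, chr2:24475600-24475719, mm10, RefSeq) are shown in the same way, as the member with the fewest CG among those with a single start.
Pax8: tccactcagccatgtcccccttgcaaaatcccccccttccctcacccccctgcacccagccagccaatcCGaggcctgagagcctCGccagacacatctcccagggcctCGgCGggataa
The 250 bases before the start held 6 CG dinucleotides, more than 49.6% of the promoters. Of the other windows, those of Pax6 held 15 each, that of Pax7 13, and the 3 of Pax2 5, 20 and 25. In all, 5 of the 6 members were matched, with 8 windows. Methylation was not measured in these libraries, and the CG counts are a description of the sequences.

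Pax3, a dorsal neural tube and neural crest gene, was not detected in WT EpiLCs (0 counts in both libraries, which allows up to 3 counts over the group) and reached its highest level in WT day 6 cells without cytokines. Its level in WT cells was 167 and 38.1 at day 2 without cytokines, 999 and 1510 at day 6 without cytokines (1255 ± 361), and 2.09 and 0 at day 6 with cytokines. In TKO cells it was 2.98 and 1.10 in EpiLCs, 34.2 and 27.6 at day 2 without and 20.4 and 3.72 with cytokines, and 64.6 and 49.2 at day 6 without and 21.8 and 14.9 with cytokines. WT day 6 cells without cytokines stood alone at the top. WT day 2 and TKO day 6 cells without cytokines overlapped, TKO day 2 cells without cytokines followed, then the TKO cells with cytokines, and EpiLCs and sorted WT cells were last.

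Pax7, its close relative in the dorsal neural tube and in muscle stem cells, had its highest levels in WT cells without cytokines. Its level in WT cells was 1.61 and 0.556 in EpiLCs, 41.9 and 11.7 at day 2 without cytokines, 772 and 424 at day 6 without cytokines (598 ± 247), and 1.39 and 1.93 at day 6 with cytokines. In TKO cells it was 2.98 and 7.70 in EpiLCs, 10.4 and 7.21 at day 2 without and 2.27 and 9.93 with cytokines, and 9.69 and 10.1 at day 6 without and 13.4 and 4.59 with cytokines. WT day 6 cells without cytokines were above WT day 2 cells. These overlapped with TKO day 6 cells with cytokines (11.7 against 13.4) and lay above the other TKO conditions. The TKO conditions overlapped with their neighbours in the order, and all of them lay above the sorted WT cells and the WT EpiLCs. Pax7 is also a gene that the study itself picked out in these samples, so its direction here is not independent evidence.

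Pax6, the gene of eye, forebrain and ventral progenitors, was also detected well above the detection floor outside WT cells without cytokines. Its level in WT cells was 8.03 and 16.1 in EpiLCs, 262 and 144 at day 2 without cytokines, 1562 and 954 at day 6 without cytokines (1258 ± 430), and 75.1 and 41.2 at day 6 with cytokines. In TKO cells it was 7.94 and 8.80 in EpiLCs, 64.3 and 43.3 at day 2 without and 11.3 and 24.8 with cytokines, and 88.3 and 111 at day 6 without and 8.40 and 25.3 with cytokines. WT day 6 cells without cytokines were above WT day 2 cells, these above TKO day 6 cells without cytokines, and these above the sorted WT cells, which overlapped with TKO day 2 cells without cytokines. The TKO cells with cytokines and the EpiLCs of both genotypes formed the lower end and overlapped with their neighbours.

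**Figure D1:**
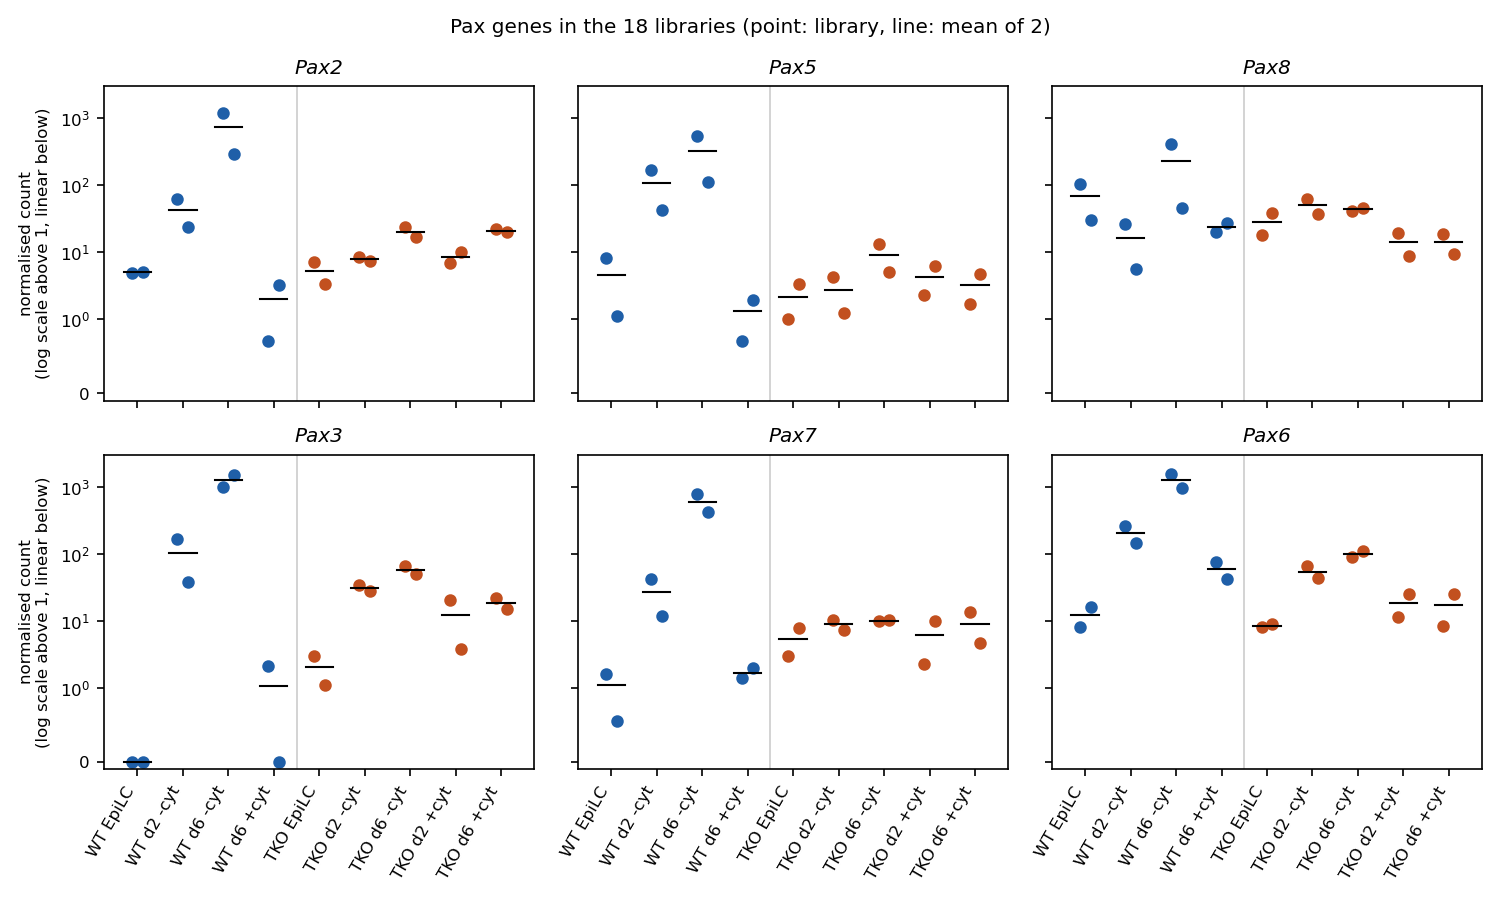
Level of each of the 6 genes (normalised count, on an axis that is logarithmic above 1 and linear below) in the 9 conditions, with WT in blue, TKO in orange, and -cyt and +cyt for without and with cytokines. Points are the 2 libraries of a condition and lines their mean. WT day 6 cells without cytokines have the highest mean for every gene, and the WT day 6 libraries of Pax2, Pax5 and Pax8 lie far apart (1192 and 292, 534 and 110, 411 and 45.2).

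Of the summed condition means of each gene, WT day 6 cells without cytokines held 89.7% for Pax7, 87.0% for Pax2, 84.9% for Pax3, 72.8% for Pax6, 70.8% for Pax5 and 47.3% for Pax8. With replicate 1 or replicate 2 of that condition in place of their mean, the share was 61.7% or 15.1% for Pax8, 80.1% or 45.3% for Pax5 and 91.5% or 72.5% for Pax2, while it lay between 67.0% and 91.8% for the other 3, so the order depends on the library. Compared per kilobase of exon, which allows genes to be set beside each other, Pax3 had the highest mean there, at 325 ± 93.4 normalised counts per kilobase (n = 2). Pax6 followed with 182 ± 62.3 and Pax2 with 167 ± 143 normalised counts per kilobase. Pax7 had 102 ± 42.1, Pax8 89.1 ± 101 and Pax5 40.3 ± 37.5 on the same scale, and the order was not the same in both libraries. In replicate 1 Pax2 (268) stood above Pax3 (258) and Pax6 (226), and in replicate 2 Pax3 (391) and Pax6 (138) stood above Pax2 (65.6).

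In WT cells without cytokines Pax2, Pax3, Pax7 and Pax6 rose both from EpiLCs to day 2 and from day 2 to day 6, while Pax5 passed the test in the first interval alone and Pax8 in the second alone. From EpiLCs to day 2, 5 of the 6 were called higher, against 6.80% of all genes tested, with a call requiring an adjusted p below 0.05 (edgeR quasi-likelihood test, Benjamini-Hochberg) and a log2 fold change beyond 2. The median log2 difference of the 6 was 4.39, and that of all genes 0.02. Pax2 rose 8.53-fold (log2 3.07 ± 0.73 SE, adjusted p = 0.00445) and Pax5 23.1-fold (log2 4.98 ± 1.01, adjusted p = 0.0016). Pax6 rose 16.8-fold (log2 3.96 ± 0.51, adjusted p = 4.16e-05). Pax3, against 0 counts in EpiLCs, was at least 76.8-fold higher when set against 3 counts over the group (adjusted p = 0.000115). For Pax7, which had 2 counts in EpiLCs, the ratio was 30.4 with a 95% counting interval of 8.03 to 257 (adjusted p = 0.00118). Pax8 went the other way and did not pass (log2 -2.01 ± 0.91, adjusted p = 0.101), and its libraries in EpiLCs and at day 2 did not overlap. DESeq2 called all 6, Pax8 among them. Single libraries moved the size for each of the 5. The Pax2 call ended without WT EpiLC replicate 2 (3.14, adjusted p = 0.0557) and without WT day 2 replicate 1 (2.27, adjusted p = 0.0587). Pax5 was 6.45 and 3.75 without EpiLC replicates 1 and 2, and 3.71 and 5.65 without day 2 replicates 1 and 2. The Pax7 ratio was 15.6 without EpiLC replicate 2 and 14.1 and 50.7 without day 2 replicates 1 and 2, and the log2 difference of Pax6 was 4.70 without EpiLC replicate 2. The lower bound for Pax3 was 19.7 without EpiLC replicate 2 and 30.7 and 135 without day 2 replicates 1 and 2.

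From day 2 to day 6 without cytokines, 5 of the 6 were again called higher in WT cells (background 8.51%), and their median log2 difference was 3.72 against 0.01 for all genes. Pax7 rose 22.3-fold (log2 4.46 ± 0.59, adjusted p = 3.41e-05) and Pax2 17.7-fold (log2 4.12 ± 0.59, adjusted p = 6.76e-05). Pax3 rose 12.3-fold (log2 3.59 ± 0.59, adjusted p = 0.000283) and Pax6 6.20-fold (log2 2.60 ± 0.42, adjusted p = 0.00019). Pax8, the fifth, rose 14.4-fold (log2 3.85 ± 0.92, adjusted p = 0.00384), but this rested on single libraries. It was 1.51 (adjusted p = 0.166) without day 6 replicate 1, 3.12 (adjusted p = 0.0526) without day 2 replicate 2, and 5.30 and 4.68 without day 2 replicate 1 and day 6 replicate 2. Fitted on the libraries compared alone it was 3.82 (adjusted p = 0.0935). Pax5, already raised at day 2, did not pass (log2 1.59 ± 0.73, adjusted p = 0.0978). Leaving out day 2 replicate 1 or 2 moved Pax7 to 5.60 and 3.81 and Pax3 to 4.97 and 2.88. Pax2 was 4.92 without day 2 replicate 1 and 2.77 and 4.80 without day 6 replicates 1 and 2. Pax5 was called as well, making 6 of 6, without day 2 replicate 1 or day 6 replicate 2.

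Over the whole course from EpiLCs to day 6 without cytokines, 5 of the 6 were called higher (background 16.4%), with a median log2 difference of 6.88 against 0.05 for all genes. Pax2 rose 151-fold (log2 7.20 ± 0.74, adjusted p = 8.95e-07), Pax6 104-fold (log2 6.55 ± 0.54, adjusted p = 9.71e-08) and Pax5 70.5-fold (log2 6.57 ± 1.03, adjusted p = 5.48e-05). Pax3 was at least 922-fold higher than 3 counts over the EpiLC group allow (adjusted p = 4.7e-07). The Pax7 ratio was 816 with a counting interval of 226 to 6747 (adjusted p = 3.39e-07). Pax8, which was already present in EpiLCs, was not called (log2 1.84 ± 0.83, adjusted p = 0.0657). Without day 6 replicate 1 or 2, Pax2 was 5.85 and 7.86 and Pax5 5.03 and 7.33. Without EpiLC replicate 1 or 2, Pax5 was 8.02 and 5.33, and Pax6 was 7.29 without EpiLC replicate 2. The lower bound for Pax3 was 237 without EpiLC replicate 2, and the Pax7 ratio was 420 without that library and 513 without day 6 replicate 1.

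With cytokines the WT cells had little RNA of these genes. In the sorted WT cells at day 6, all 6 genes were called lower than in WT cells without cytokines, against 14.0% of all genes in that direction, and their median log2 difference was -8.06 (all genes 0.01). Pax2 was 379-fold lower (log2 -8.42 ± 0.79, adjusted p = 3.48e-07), Pax7 360-fold (log2 -8.35 ± 0.77, adjusted p = 2.98e-07) and Pax5 245-fold (log2 -7.77 ± 1.08, adjusted p = 2.01e-05). Pax3, with 3 counts in the sorted cells, was lower by a ratio of 1140 with a counting interval of 390 to 5530 (adjusted p = 4.56e-07). All 3 counts were in sorted replicate 1, and the ratio was 548 without sorted replicate 2 and at least 592 without replicate 1. Pax6 was 21.6-fold lower (log2 -4.40 ± 0.46, adjusted p = 1.07e-06). The Pax8 difference, 9.81-fold (log2 -3.26 ± 0.87, adjusted p = 0.0048), was -0.91 (adjusted p = 0.329) without replicate 1 of the cells without cytokines and -4.08 without replicate 2, and on the libraries compared alone it was -3.31 (adjusted p = 0.0642). Without replicate 1 or 2 of the cells without cytokines Pax2 was -7.07 and -9.09 and Pax5 -6.20 and -8.48. Without replicate 1 or 2 of the sorted cells Pax2 was -7.75 and -9.79, and Pax5 was -8.59 without replicate 2. The germ cell markers stood higher in the sorted cells, with 8 of 8 called, and the effect of sorting was not tested apart from that of the cytokines. Compared with WT EpiLCs, 1 of the 6 genes was called higher in the sorted cells (background 7.58%). This was Pax6, at 4.81-fold (log2 2.15 ± 0.51, adjusted p = 0.00368). It was no longer beyond a log2 fold change of 2 without EpiLC replicate 1 (1.86, adjusted p = 0.0351) or without sorted replicate 1 (1.66, adjusted p = 0.0433), and was 2.90 without EpiLC replicate 2. The comparisons with WT EpiLCs, with WT day 6 cells without cytokines and with sorted cells share libraries.

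In TKO cells without cytokines at day 6, Pax7, Pax2, Pax5, Pax3 and Pax6 were 12.6- to 60.5-fold below the WT level, and the Pax8 libraries overlapped. All 6 were called lower than in WT cells (background 9.46%), and their median log2 difference was -4.77 against 0.01 for all genes. Pax7 was 60.5-fold lower (log2 -5.89 ± 0.66, adjusted p = 3.27e-06), Pax2 37.0-fold (log2 -5.18 ± 0.64, adjusted p = 8.36e-06) and Pax5 35.9-fold (log2 -5.11 ± 0.91, adjusted p = 0.000243). Pax3 was 22.0-fold lower (log2 -4.43 ± 0.63, adjusted p = 4.22e-05) and Pax6 12.6-fold (log2 -3.64 ± 0.45, adjusted p = 7.66e-06). Pax8 was 5.28-fold lower in the means (log2 -2.40 ± 0.85, adjusted p = 0.0257), but TKO replicate 2 (45.4) lay above WT replicate 2 (45.2). Its difference was -0.05 (adjusted p = 0.961) without WT replicate 1 and -3.22 (adjusted p = 0.000524) without WT replicate 2. It was -2.32 (adjusted p = 0.119) and -2.46 (adjusted p = 0.102) without TKO replicate 1 or 2, and -2.31 (adjusted p = 0.129) on the libraries compared alone. Without WT replicate 1 or 2 the differences were -3.83 and -5.85 for Pax2 and -3.55 and -5.82 for Pax5, and Pax5 was -5.95 without TKO replicate 1. Those of Pax3, Pax7 and Pax6 moved by less than 1.5-fold under every omission.

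**Figure D2:**
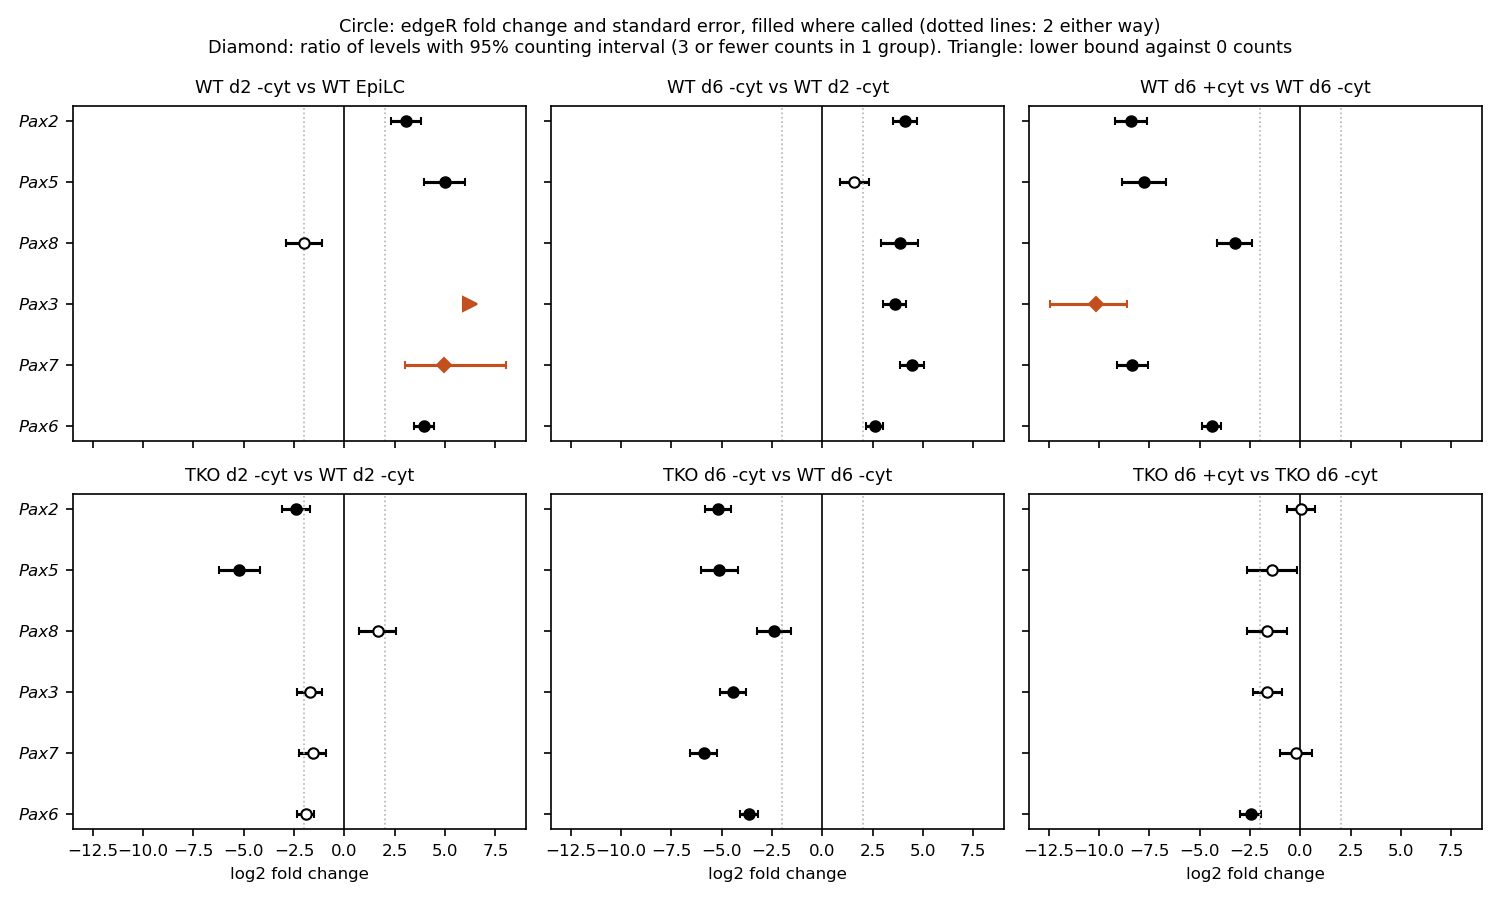
Log2 differences of the 6 genes in 6 comparisons, named above each panel as first against second condition. Circles are edgeR fold changes with standard errors, filled where called, diamonds are ratios of levels with 95% counting intervals where 1 group had 3 or fewer counts, and the triangle is a lower bound against 0 counts. All 6 genes lie beyond -2 in WT day 6 cells with against without cytokines (d6 +cyt and d6 -cyt) and in TKO against WT day 6 cells without cytokines.

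At day 2 without cytokines, 2 of the 6 genes were called lower in TKO than in WT cells (background 3.08%), and the median of the 6 was -1.83 against 0 for all genes. Pax5 was 39.5-fold lower (log2 -5.21 ± 1.04, adjusted p = 0.00147) and Pax2 5.40-fold (log2 -2.42 ± 0.70, adjusted p = 0.0153). Pax6 (log2 -1.93 ± 0.44, adjusted p = 0.00376) and Pax3 (log2 -1.73 ± 0.62, adjusted p = 0.0462) passed the p but not the size required, and Pax7 passed neither (log2 -1.58 ± 0.67, adjusted p = 0.0812). Pax8 was 1.66 ± 0.91 in the other direction (adjusted p = 0.177), with both TKO libraries above both WT libraries. The call for Pax2 ended without WT replicate 1 (-1.62, adjusted p = 0.145), TKO replicate 1 (-2.54, adjusted p = 0.0832) or TKO replicate 2 (-2.33, adjusted p = 0.0899). Pax5 kept its call and was -3.95 and -5.91 without WT replicates 1 and 2 and -6.35 without TKO replicate 1. Pax3 was -0.35 (adjusted p = 0.705) without WT replicate 1 and -2.46 (adjusted p = 0.00634) without WT replicate 2, and leaving out the latter raised the number of called members from 2 to 5. In EpiLCs, 0 of the 6 were called between the genotypes by edgeR (background 2.31% in either direction) and 0 by DESeq2, and 1, Pax7, had an unadjusted p below 0.05 (10 counts in TKO against 2 in WT cells, a ratio of 6.31 with a counting interval of 1.35 to 59.3).

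Within the TKO cells Pax3 and Pax6 were the members called higher without cytokines. From EpiLCs to day 2, 2 of the 6 were called higher (background 4.73%), Pax3 at 15.2-fold (log2 3.81 ± 1.01, adjusted p = 0.019) and Pax6 at 6.43-fold (log2 2.67 ± 0.57, adjusted p = 0.00612). The Pax3 call ended when any 1 of the 4 libraries was left out (adjusted p 0.0572 to 0.116), and that of Pax6 without TKO day 2 replicate 1 (2.33, adjusted p = 0.058). To day 6 the same 2 genes were called (background 7.77%), Pax3 at 27.9-fold (log2 4.70 ± 0.95, adjusted p = 0.00287) and Pax6 at 11.9-fold (log2 3.55 ± 0.56, adjusted p = 0.000416), and both kept their calls under every omission, with Pax3 at 5.54 without TKO EpiLC replicate 1. Pax2 (log2 1.93 ± 0.79, adjusted p = 0.0815), Pax5 (log2 2.06 ± 1.28, adjusted p = 0.245), Pax7 (log2 0.89 ± 0.81, adjusted p = 0.437) and Pax8 (log2 0.64 ± 0.88, adjusted p = 0.621) were not called. Their mean levels at day 6 were 3.91-fold (Pax2), 4.19-fold (Pax5), 1.85-fold (Pax7) and 1.56-fold (Pax8) those of TKO EpiLCs. Total counts were 35 against 10 for Pax2, 16 against 4 for Pax5, 17 against 10 for Pax7 and 74 against 52 for Pax8.

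Cytokines moved Pax6 in TKO cells at day 6. There 1 of the 6 genes was called lower with than without cytokines (background 1.62%), Pax6 at 5.92-fold (log2 -2.46 ± 0.52, adjusted p = 0.0134), with 8.40 and 25.3 against 88.3 and 111 normalised counts. This call ended without replicate 1 or 2 of the cells without cytokines (-2.62, adjusted p = 0.0501, and -2.30, adjusted p = 0.0883) and without replicate 1 of those with cytokines (-1.96, adjusted p = 0.136), and was -3.53 (adjusted p = 0.0336) without their replicate 2. Pax2 had overlapping libraries (log2 0.04 ± 0.68). At day 2, 0 of the 6 were called between TKO cells with and without cytokines (background 1.58% in either direction) and 0 by DESeq2. Pax6 alone had an unadjusted p below 0.05 (log2 -1.57 ± 0.52, edgeR adjusted p = 0.0917). With cytokines at day 6 against TKO EpiLCs, 0 of the 6 were called by edgeR (background 9.03% in either direction). Unadjusted p-values were below 0.05 for 2, Pax2 (log2 1.97 ± 0.81, adjusted p = 0.0862) and Pax3 (log2 3.05 ± 1.11, adjusted p = 0.0575), and DESeq2 called 1, Pax3.

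At day 6 with cytokines, unsorted TKO cells held more Pax2 and Pax3 RNA than sorted WT cells, with 2 of 6 called higher (background 4.58%). Pax2 was 10.6-fold higher (log2 3.29 ± 0.86, adjusted p = 0.0155), and Pax3, with 3 counts in WT cells, had a ratio of 17.7 with a counting interval of 5.42 to 91.3 (adjusted p = 0.0243). Pax6 was lower in TKO cells and passed the p but not the size (log2 -1.71 ± 0.52, adjusted p = 0.0321). The Pax3 call ended with the omission of any 1 of the 4 libraries (adjusted p 0.0536 to 0.142). That of Pax2 ended without WT replicate 1 (2.62, adjusted p = 0.133), TKO replicate 1 (3.20, adjusted p = 0.0651) or TKO replicate 2 (3.37, adjusted p = 0.0528), and it was 4.66 (adjusted p = 0.0362) without WT replicate 2. Sorting of the WT cells alone and genotype cannot be told apart here.

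The differences between genotypes were tested against EpiLCs and against cytokines as interaction terms. The change from EpiLCs to day 6 without cytokines was called smaller in TKO than in WT cells for 4 of the 6 genes (background 8.54%). For Pax2 the difference was -5.27 ± 1.18 (log2, adjusted p = 0.00272) and for Pax6 -3.0 ± 0.81 (adjusted p = 0.00916). Pax7 (adjusted p = 0.000169) and Pax3 (adjusted p = 0.0207) were called as well, but their sizes rest on 2 and 0 counts in WT EpiLCs and are not given. Pax5 (-4.51 ± 1.96, adjusted p = 0.0847) and Pax8 (-1.20 ± 1.20, adjusted p = 0.467) did not pass, though DESeq2 called 5, Pax5 among them. Without TKO EpiLC replicate 1 the Pax2 and Pax3 calls ended (-4.63 with adjusted p = 0.071 for Pax2, and adjusted p = 0.212 for Pax3), and without WT EpiLC replicate 2 the Pax3 call ended (adjusted p = 0.073). Pax2 was -3.92 and -5.94 without WT day 6 replicates 1 and 2, and Pax6 was -3.74 without WT EpiLC replicate 2. For the change to day 2, 0 of the 6 were called by edgeR (background 6.40% in either direction), 4 had an unadjusted p below 0.05 (Pax5, Pax8, Pax3 and Pax7), and DESeq2 called 2 (Pax5 and Pax7).

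The cytokine effect at day 6 was called higher, that is less negative, in TKO than in WT cells for 4 of the 6 (background 10.5%). The difference was 8.46 ± 1.04 for Pax2 (log2, adjusted p = 1.4e-05), 8.15 ± 1.17 for Pax7 (adjusted p = 5.86e-05) and 6.36 ± 1.95 for Pax5 (adjusted p = 0.016). Pax3 was called too (adjusted p = 9.46e-05), with 3 counts in the sorted WT cells. Pax6, whose level fell with cytokines in both genotypes, differed by 1.94 ± 0.69 (adjusted p = 0.0331), short of the size required, and Pax8 by 1.60 ± 1.30 (adjusted p = 0.344). Pax2 was 7.11 and 9.13 without replicates 1 and 2 of WT cells without cytokines and 7.80 and 9.83 without those of the sorted cells. Pax5 was 4.80 and 7.07 without replicates 1 and 2 of WT cells without cytokines, 7.18 without sorted replicate 2 and 7.21 without replicate 1 of TKO cells without cytokines. Its call ended without replicate 2 of TKO cells with cytokines (5.41, adjusted p = 0.273). Pax7 was 7.27 and 8.80 without replicates 1 and 2 of TKO cells with cytokines, and Pax6 was 0.86 (adjusted p = 0.531) without replicate 2 of them. The sort of the WT cells is part of this difference. These comparisons share the WT day 6 libraries without cytokines.

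The replicates of that condition differed in which Pax genes they held. Replicate 1 exceeded replicate 2 by 9.10-fold for Pax8, 4.86-fold for Pax5 and 4.09-fold for Pax2, by 1.82-fold for Pax7 and by 1.64-fold for Pax6, whereas Pax3 was 1.51-fold higher in replicate 2. Over the 11694 genes with a mean of at least 50 the ratio of replicate 1 to replicate 2 had a median of 1.01, with 0.446 and 2.94 as its 5th and 95th percentiles. Pax2, Pax5 and Pax8 thus lay above the upper end of that range, and Pax3, Pax7 and Pax6 inside it. At day 2 all 6 were higher in replicate 1, by 1.82-fold (Pax6) to 4.84-fold (Pax8), where the same percentiles were 0.669 and 1.56 over 11208 genes.

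**Figure D3:**
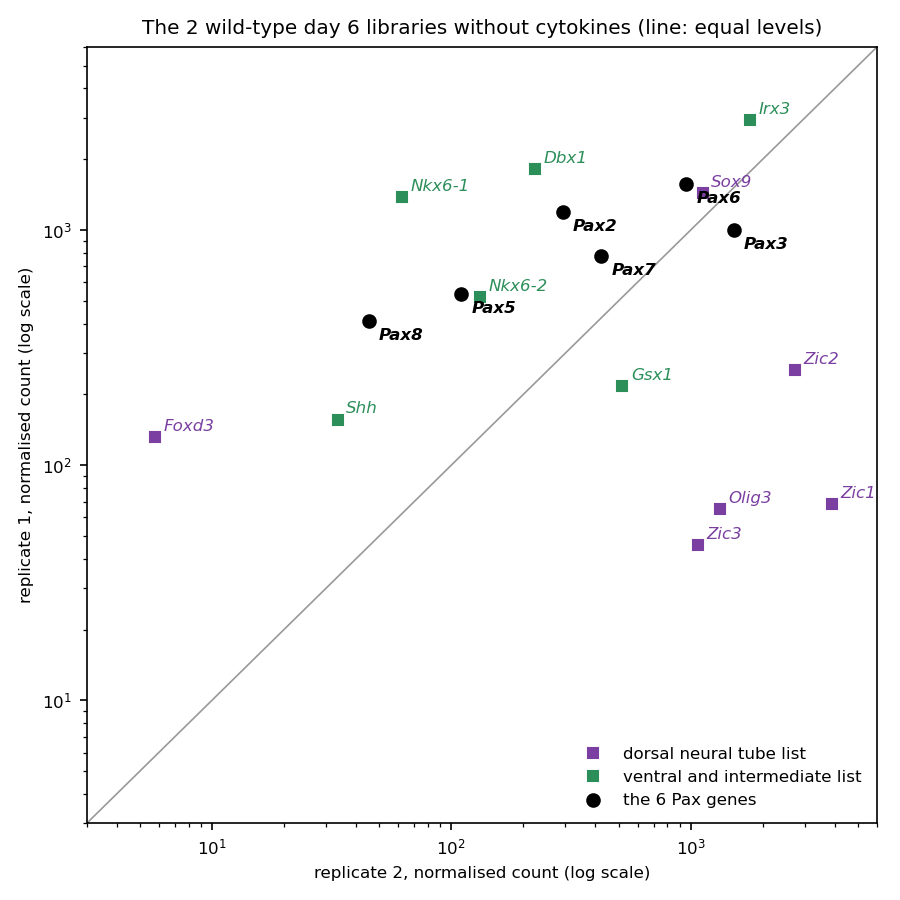
Replicate 1 against replicate 2 of WT day 6 cells without cytokines (normalised counts, both axes log, diagonal line for equal levels), for the 6 genes (circles) and for named genes of the dorsal and of the ventral and intermediate lists (squares). Pax2, Pax5 and Pax8 lie 4.09-, 4.86- and 9.10-fold toward replicate 1, and Pax3 1.51-fold toward replicate 2.

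Other genes of neural patterning differed between these 2 libraries as well. The summed level of the dorsal neural tube and neural crest list was 2497 in replicate 1 and 14807 in replicate 2, with Zic1, a dorsal transcription factor, at 68.5 and 3910 and Olig3, a marker of dorsal progenitors, at 64.8 and 1329. Within that list Foxd3, a neural crest gene, went the other way (132 and 5.79). The roof plate genes Wnt3a (0.907 and 835), Msx1 (12.7 and 1182) and Gdf7 (24.9 and 828) of the same list were named after their values were seen. The boundary list summed to 2011 and 3401, with Wnt1 at 4.99 and 976 and Otx2 at 10.4 and 594, while Lmx1b was 1300.2 and 623. The ventral and intermediate list summed to 7325 in replicate 1 and 2815 in replicate 2, with Dbx1 at 1814 and 225 and Nkx6-1 at 1382 and 62.5. The list of neural progenitor and neuron genes was nearly level, at 76378 and 72174. The part of these differences in the Pax2, Pax5 and Pax8 values was not tested.

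Per kilobase, Pax2, Pax5 and Pax8 together made up 44.5% of the summed level of the 6 genes in WT day 6 replicate 1 and 13.9% in replicate 2, and Pax3 and Pax7 35.1% and 66.3%. Pax6 held 20.4% and 19.8%. In TKO day 6 cells without cytokines the same shares were 42.4% and 41.9% for Pax2, Pax5 and Pax8, 34.0% and 27.5% for Pax3 and Pax7, and 23.7% and 30.6% for Pax6. The summed level per kilobase was 54.1 and 52.6 in TKO against 1112 and 698 in WT cells. Pax8 held 29.5% and 33.7% in TKO against 14.4% and 2.53% in WT cells, Pax2 9.85% and 7.01% against 24.1% and 9.40%, and Pax7 3.06% and 3.27% against 11.9% and 10.4%. These TKO shares rest on 223 and 188 counts of all 6 genes and on the exon length used. With the comprehensive GENCODE annotation (6061 against 2560 bases), Pax8 fell from 16.9 to 7.12 per kilobase in these TKO cells, and from rank 1 to rank 3. In WT EpiLCs the Pax2, Pax5 and Pax8 subfamily held 96.8% and 84.2%, from 79 and 95 counts of all 6 genes.

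**Figure D4:**
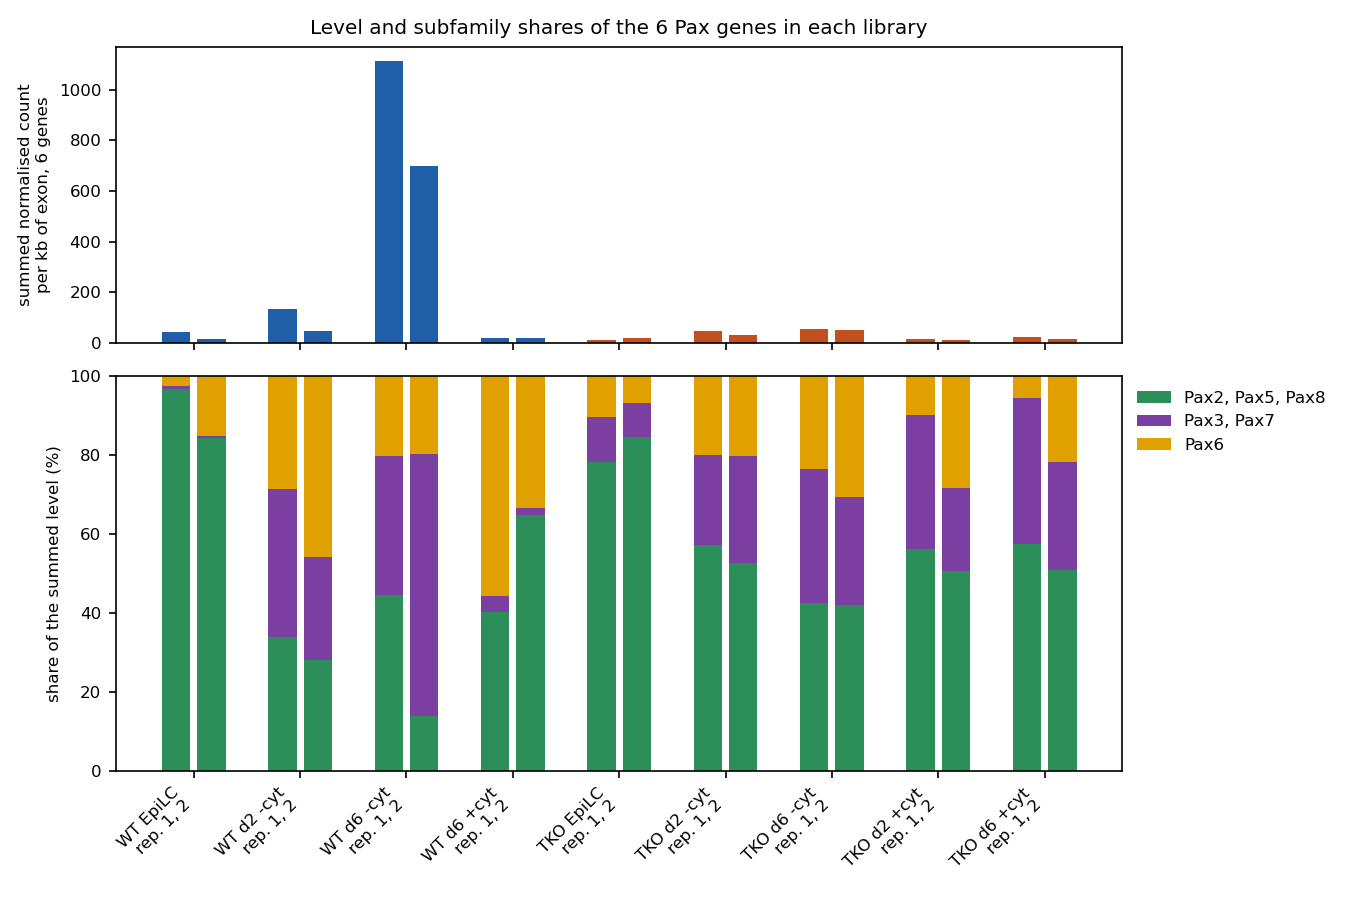
Summed level of the 6 genes per kilobase of exon (upper panel, normalised counts) and the share of each Pax subfamily in it (lower panel, percent), with a bar for each library, replicate 1 before replicate 2. In WT day 6 cells without cytokines the Pax2, Pax5 and Pax8 share is 44.5% in replicate 1 and 13.9% in replicate 2.

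The neural genes around the members were counted from lists, which were also chosen with earlier results of these data known. Of 14 neural progenitor and neuron genes, 12 were called higher in WT day 6 cells without cytokines than in EpiLCs (median log2 5.68), 13 lower in the sorted WT cells (-5.87) and 12 lower in TKO day 6 cells without cytokines (-4.78). The medians of all genes in these 3 comparisons were 0.05, 0.01 and 0.01. Tubb3, a neuronal tubulin, was 17308 and 18374 in WT and 1281 and 1878 in TKO day 6 cells. Sox2, which is also a pluripotency gene, was higher in TKO cells (6785 and 6661 against 2875 and 2757) and short of the size required. Of 10 ventral and intermediate genes tested, 9 were called higher from EpiLCs to day 6 in WT cells (4.50), 9 lower in the sorted cells (-5.98) and 8 lower in TKO cells (-3.66). Of 15 dorsal genes, 9 were called higher and 1 lower (4.81), 8 lower and 1 higher (-3.30), and 6 lower and 2 higher (-0.42) in the same 3 comparisons. The 10 midbrain-hindbrain boundary genes gave 3 higher and 2 lower (0.43), 3 lower and 2 higher (-1.57), and 1 in each direction (0.15). For 10 eye field and forebrain genes tested the counts were 7 higher (3.29), 5 lower and 4 higher (-0.62), and 1 lower and 4 higher (0.23). Among these Mitf, a gene of the eye's pigment layer, was 122 and 58.1 in TKO against 23.1 and 15.1 in WT day 6 cells. In the TKO comparison the dorsal, boundary and eye field medians thus lay closest to that of all genes (0.01). The neural and ventral medians lay further from it. The median of the 6 Pax genes there was -4.77. All 6 were called lower, though the Pax8 libraries of the genotypes overlapped.

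Pax genes also act outside neural tissue, so markers of those tissues were set beside them in WT day 6 cells without cytokines. Against EpiLCs, 16.4% of all genes were called higher and 10.9% lower in these cells. The markers named are a part of each list, and not every called marker is named. The kidney list summed to 5638 and 1265, and 3 of 5 tested genes were called higher than in EpiLCs, among them Lhx1 (2282 and 655), which neurons also use, while Osr1 and Cdh16 had at most 2.27. The skeletal muscle list summed to 1482 and 1102, mostly Lbx1 (1332 and 994), which dorsal interneurons also use, and Myf5, Myod1 and Myf6 were at 0, with 1 of 4 tested higher and 2 lower. The B cell list summed to 1847 and 626, mostly Ebf1 (1836 and 620), which neurons also use, with Cd79b and Ptprc at 0, 1 higher and 1 lower of 4. The pancreatic islet list summed to 529 and 246 with Pdx1, Ins1, Gcg and Iapp at 0 (2 of 3 higher). In replicate 1 Sst and Pcsk2 made up the whole of this sum. The thyroid list summed to 35.8 and 22.0 (1 higher and 3 lower of 5), the inner ear list to 341 and 168 (2 of 5 higher) and the paraxial mesoderm list to 946 and 669 with Msgn1 at 0 (1 higher and 1 lower of 5). The lens list summed to 46.2 and 52.1 with Cryaa, Crybb2 and Lim2 at 0, and 0 of 7 tested were called. Each of these sums except that of the lens list was higher in replicate 1, as were all the Pax members except Pax3. The kidney list already summed to 4015 and 3706 in WT EpiLCs. The part of such tissues in the Pax values was not tested.

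Over the 9 condition means (log2 of the mean plus 1), Pax2, Pax5, Pax3, Pax7 and Pax6 had Pearson correlations of 0.823 (Pax2 and Pax6) to 0.972 (Pax2 and Pax7) with each other, and Pax8 of 0.42 to 0.575 with the others. All points share the same libraries, and WT day 6 cells without cytokines weigh on each of them. Among 13721 other genes, those most like a member over the 9 conditions were Fgfr2, a receptor for fibroblast growth factors, for Pax6 (0.997), Ndst1, an enzyme of heparan sulphate synthesis, for Pax2 (0.993) and Nedd9 for Pax3 (0.99). The nearest to Pax5 was Smarce1, a chromatin remodelling subunit (0.987), and the nearest to Pax7 was Acsl6, an acyl-CoA ligase (0.986). The nearest to Pax8 was Napb, at 0.963. The next were Apbb1 (0.989) and Olfm1 (0.983) for Pax2, Cd24a and Crb2 (both 0.986) for Pax5, and Zfp641 (0.99) and Tox2 (0.987) for Pax3. They were Pnmal2 and Sft2d3 (both 0.984) for Pax7, Sdk1 (0.986) and Atoh8 (0.985) for Pax6, and Pdpn (0.956) and Srr (0.94) for Pax8.

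In the annotation (mm10, GENCODE M21) the genes lie apart from each other. Pax2 is on chromosome 19 (chr19:44756045-44837871, plus strand), Pax5 on chromosome 4 (chr4:44524757-44710487, minus), Pax7 on the same chromosome (chr4:139737062-139833528, minus) and Pax3 on chromosome 1 (chr1:78101267-78197134, minus). Pax8 (chr2:24420560-24475599, minus) and Pax6 (chr2:105668900-105697364, plus) are on chromosome 2. Counting took no account of strand, so reads of a gene and of a transcript on the opposite strand cannot be told apart where they overlap. Pax6 overlaps the antisense gene Pax6os1, Pax2 the antisense genes 1700039E22Rik and Gm20395 and the miRNA gene Mir6405, and Pax8 overlaps Gm13415. Pax5 overlaps 4930517J16Rik, 5730488B01Rik, Gm12462 and Mir5120. Pax6os1 was at 9.07 and 6.95 normalised counts where Pax6 was at 1562 and 954. Pax3 and Pax7 overlap no other annotated gene.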

How the data were processed

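RNA was depleted of ribosomal RNA and sequenced as directional libraries from the 18 samples. Per the labels and the study's methods, the authors trimmed reads with Trim Galore 0.5.0 and cutadapt 1.16, aligned them to mm10 with STAR 2.7.1a and counted fragments on refGene exons with featureCounts (Subread 1.5.2), with no strand option. The deposited values are raw counts per gene, and 33 lines without values were dropped.

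Counts were tested with edgeR 4.0.16 (quasi-likelihood, TMM, filterByExpr) in R 4.3.3 with limma 3.58.1, in a single fit of 9 group means over the 18 libraries, with p adjusted by Benjamini-Hochberg over 16582 genes. Calls needed more than 2 on the log2 scale either way besides an adjusted p under 0.05, the limits of the study, whose DESeq2 test (1.42.0) was an alternative. SE is the log2 difference over the root of F. Levels are counts over DESeq2 size factors. Intervals (exact Poisson, 95%) and the floor of 3 counts cover counting error only. The replicates are called biological in the study, with separate cultures not stated in the labels, so p-values measure the spread between these samples. The biological coefficient of variation over all genes (root of edgeR's common dispersion) was 0.222. Rn45s took 16.2 to 47.6% of counts. On data simulated for WT day 6 without cytokines against EpiLCs (15812 genes), 100% of 200 genes changed by 3 on the log2 scale were recovered, with 1.48% false calls. The simulation used a single fixed dispersion, changed only genes that were not low in counts, and called by adjusted p alone. It therefore does not show recovery for members at few counts or in conditions whose replicates lay far apart. The paired box windows and gene models come from GENCODE M21 and the start regions from RefSeq (GRCm38.p6, the same build). Genes named are the 6 members, genes overlapping them, the Tet genes and Rn45s. The 3 genes most correlated with each member are named too (log2 of the mean plus 1, highest mean of at least 50). From each list, up to 6 genes with the highest condition means are named. Outside that rule, some list genes at or near 0 were named, and Wnt3a, Msx1 and Gdf7 after their values were seen. The members and lists were chosen with earlier results of these data known. Alternatives were DESeq2, other filters and scalings, other limits, a replicate block, the libraries compared alone and the omission of each library. The counts of 1 further gene list are not reported here.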

Additional observations from a re-analysis of the deposited data

Results flagged for a closer look

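Members with an adjusted p below 0.05 in an interaction test at day 6 (edgeR, Benjamini-Hochberg) are set out here as values, without the log2 limit of 2. With that limit 4 of the 6 were called in each contrast. The background of all genes called in the same direction was 8.54% for time and 10.5% for cytokines. For the change from EpiLCs to day 6 without cytokines the adjusted p of the difference was 0.00272 for Pax2 (log2 -5.27 ± 1.18), 0.00916 for Pax6 (-3.0 ± 0.81), 0.000169 for Pax7 and 0.0207 for Pax3, the last 2 with 2 and 0 counts in WT EpiLCs. For the cytokine effect at day 6 it was 1.4e-05 for Pax2 (8.46 ± 1.04), 0.016 for Pax5 (6.36 ± 1.95), 5.86e-05 for Pax7 (8.15 ± 1.17), 9.46e-05 for Pax3 and 0.0331 for Pax6 (1.94 ± 0.69). In this second contrast the WT cells with cytokines were sorted and the TKO cells were not, and the 2 cannot be told apart. With 2 libraries a condition, no test for a single library standing apart was made.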

How the results depend on the processing

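Among 49 member results with an adjusted p below 0.05 in the main edgeR fit, no value reversed direction. This covers 392 values under other settings and 232 with a library left out. Of the 392, 383 kept an adjusted p below 0.05 and 9 did not. That split does not cover the 232 values with a library left out, among which this limit was lost more often. The log2 limit of 2 was not part of this tally. The causes were not tested. Counts of called members moved as follows. In TKO against WT day 2 cells without cytokines (2 called), 4 were called with a log2 limit of 1, 1 with an adjusted p limit of 0.01, and 1 to 5 with a library left out. In TKO against WT day 6 cells with cytokines (2), the adjusted p limit of 0.01 left 0, and omissions 0 to 2. In TKO day 6 cells with against without cytokines (1), that limit left 0, scaling by library size alone gave 2, and omissions 0 to 1. At day 2 (0), library size alone gave 1. From TKO EpiLCs to day 2 (2), the limit of 0.01 left 1 and omissions 0 to 1. In sorted WT cells against EpiLCs (1), omissions gave 0 to 1. In TKO cells with cytokines at day 6 against TKO EpiLCs (0), DESeq2, no filter and the libraries compared alone each gave 1, and the replicate block 2. For the interaction with time, day 2 (0) gave 2 by DESeq2, 3 without a filter and 0 to 1 with omissions, and day 6 (4) gave 2 to 5 with omissions. The replicate numbers did not pair the samples: over 36 pairs of conditions the correlation of deviations was -0.145 to 0.162, over 0.1 in 6 pairs. The replicate block moved no other count of called members by more than 1.5 times. With the comprehensive annotation Pax2 took rank 2 and Pax6 rank 3 per kilobase in WT day 6 cells without cytokines. With 2 libraries a condition and members at a few counts in EpiLCs and sorted cells, sizes there are imprecise.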

Other observations

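The other Pax genes of the table followed another course. Pax9, which acts in pharyngeal pouches, teeth and the axial skeleton, was 32.3 and 27.8 in TKO against 4.99 and 1.2 normalised counts in WT day 6 cells without cytokines (edgeR log2 3.06 ± 0.71, adjusted p = 0.00225). With cytokines at day 6 it was 23.5 and 29.8 in TKO against 2.78 and 5.15 in WT cells (2.71 ± 0.71, adjusted p = 0.0165). Pax1, its relative in the sclerotome, was 10.8 and 7.57 in TKO day 6 cells without cytokines and 0 in both WT libraries (adjusted p = 0.00655). The background of genes called higher in this comparison was 14.4%. Pax1 was already at 20.8 and 5.50 in TKO EpiLCs, against 3.21 and 0 in WT EpiLCs. At day 2 without cytokines it was 19.7 and 9.61 in TKO against 1.95 and 0 in WT cells. Pax4 was at 0 in every library.

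Lens genes, which lie downstream of Pax6 in the eye, were detected in TKO cells without cytokines. Cryaa, a lens crystallin, was 105 and 250 at day 2 and 190 and 249 at day 6 without cytokines, and 0 and 3.72 at day 2 and 20.2 and 3.44 at day 6 with cytokines. It was lower with cytokines at day 2 (log2 -6.52 ± 0.97, adjusted p = 0.00424) and at day 6 (-4.29 ± 0.79, adjusted p = 0.00981). Crybb2, another crystallin, was 90.3 and 232 at day 2 and 129 and 193 at day 6 without cytokines, and at 0 with cytokines and in every WT library. Of 7 lens genes tested, 4 were called lower with cytokines at day 6, where Pax6 was the only member called lower, and 1.62% of all genes were. Pax6 itself was higher in WT day 6 cells without cytokines (1562 and 954), where both crystallins were at 0, than in these TKO cells (88.3 and 111 at day 6).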
